A study of Mus musculus with 6 samples.

Results

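The genes described here encode ligands by which a tumor cell engages lymphocytes and macrophages: checkpoint ligands, costimulatory ligands, ligands of natural killer cell receptors and a signal against phagocytosis. They were chosen by name, as a list of 10 genes looked up in the deposited table of irinotecan against DMSO, and 9 of the 10 were among its 11604 genes. Raet1e, a ligand of the activating receptor NKG2D, had no row and was not analysed here. All 9 passed the filter on low counts, and the choice of members used no measured value of its own, although results of these data were known when the list was drawn up.

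RNA was sequenced from CT26 cells, a colon carcinoma line of the BALB/c mouse that is labelled wild type and is often transplanted to study anti-tumor immunity. In 3 libraries the cells had been exposed to 10 µM irinotecan (CPT-11) for 24 h, and 3 libraries came from cells given DMSO, the solvent, for which the labels state no time. Irinotecan is a prodrug whose active form, SN-38, traps topoisomerase I on DNA. The title of the series places the comparison in the context of anti-tumor immunity. The libraries held 16052326 to 17294496 counts. The design text of the series speaks of duplicates, whereas 3 samples carry each treatment label; none was left out here. Nothing in the labels tells whether replicates were grown as separate cultures, and the p-values then reflect the spread among these 6 libraries alone, which may be technical.

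Checkpoint ligands such as PD-L1 bind inhibitory receptors on T cells and restrain their activity, while costimulatory ligands such as CD80 and the 4-1BB ligand can sustain it. Ligands of NKG2D are stress-regulated relatives of MHC class I molecules that mark a cell for natural killer cells and some T cells. PVR and nectin-2 are shared by the activating receptor DNAM-1 and inhibitory receptors including TIGIT, so that a single ligand can feed both arms. Messenger RNA was measured here, not the protein at the cell surface, and in bulk RNA fewer cells carrying a transcript and less RNA per cell cannot be told apart.

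Of 10 markers of differentiated colon epithelium, Krt18, Krt20 and Cdh17 were listed, and Epcam, Cdh1, Krt8, Krt19, Vil1, Cdx2 and Muc2 were not; the 3 summed to 87.3 to 98.6 CPM in irinotecan libraries and 96.5 to 103 CPM in DMSO libraries. They went different ways: Cdh17 rose and Krt18 fell (log2 fold changes 1.40 and -0.23; edgeR, adjusted p = 0.0047 and 0.025), and Krt20 did not pass (0.04; adjusted p = 0.76). CPM are counts scaled to a common library size with TMM normalization. Of 11 markers of T and natural killer cells, 4 of B cells and 5 of endothelial cells, 0 were listed. Of 9 markers of macrophages and dendritic cells, Cd68 and Cd14 were listed, with a summed level of 31.1 to 34.3 CPM in irinotecan libraries and 24.9 to 28.4 CPM in DMSO libraries. Ptprc, Itgam, Adgre1, Csf1r, Lyz2, Itgax and Flt3 were not listed. Of 7 fibroblast markers 5 were listed, summing to 1841 to 1891 CPM with irinotecan and 1641 to 1674 CPM with DMSO. The part of these markers in the results below was not tested.

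Irinotecan went with more RNA of 5 of the 9 ligand genes and less of 2. Tnfsf9, Cd80, Lgals9, Cd276 and Ulbp1 rose, Pvr and Nectin2 fell, and Cd274 and Cd47 did not pass the test (edgeR quasi-likelihood test, Benjamini-Hochberg adjusted p under 0.05 over 11599 genes). Over all genes tested 22.1% were called, 11.8% higher and 10.3% lower. Of the calls 53.5% were higher with TMM scaling, against 66.1% with total counts alone and 68.0% on the log2(FPKM + 0.1) scale; total counts put the median of all genes at 0.03 on the log2 scale. The 3 irinotecan libraries lay wholly above or below the 3 DMSO libraries in the same 7 members, 5 of them higher and 2 lower. Such a separation was found in 37.1% of all genes, higher in 19.3% and lower in 17.8%. The median log2 fold change was 0.31 over the 9 members and 0.00026 over all genes, and the median absolute change was 0.34 against 0.13. Pvr and Nectin2 thus moved opposite to the other members that passed.

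**Figure D1:**
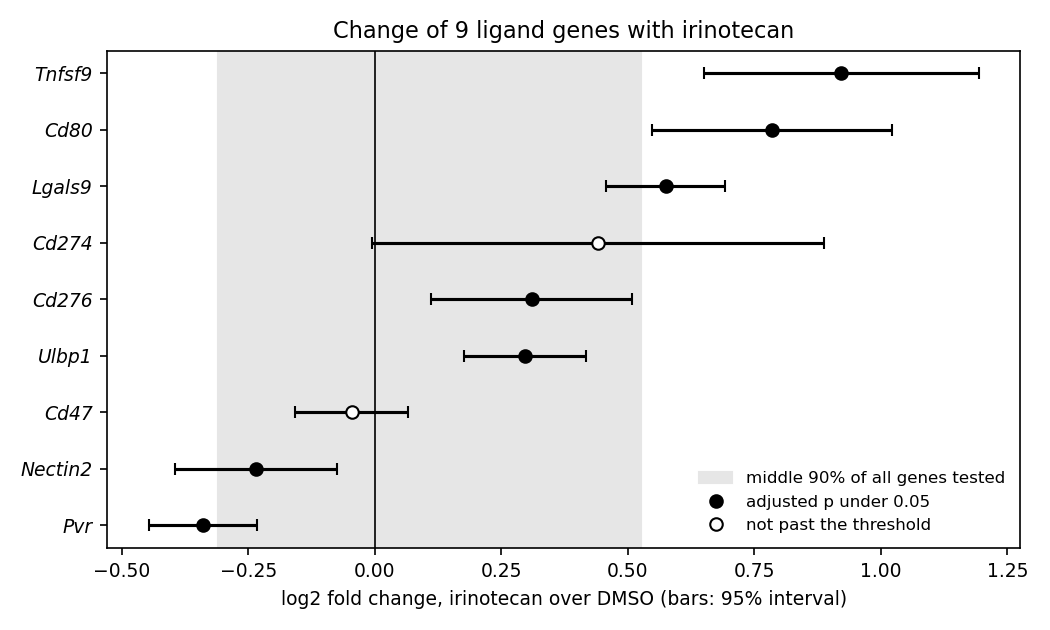
Log2 fold change of the 9 ligand genes, irinotecan over DMSO, with 95% intervals; filled points passed an adjusted p of 0.05 and the grey band holds the middle 90% of all genes tested, -0.31 to 0.53. Tnfsf9, Cd80 and Lgals9 lie beyond the upper edge of the band, Pvr lies beyond its lower edge, and the intervals of Cd274 and Cd47 include 0.

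Among the listed members, Pvr and Tnfsf9 had no promoter window. Shown are the proximal windows of Lgals9, Cd80 and Cd274, the 3 listed members whose window held a match to a motif searched. They run from 250 bases before to 50 bases after the start site and come from RefSeq on GRCm38.p6, whose coordinates differ from the GRCm39 coordinates of the count table. Capitals mark matches on either strand to the core recognised by interferon regulatory factors, AANNGAAA, or to the AP-1 motif TGANTCA. Lgals9 is at chr11:78984875-78985174 on the minus strand, Cd80 at chr16:38458683-38458982 on the plus strand and Cd274 at chr19:29367188-29367487 on the plus strand.
Lgals9: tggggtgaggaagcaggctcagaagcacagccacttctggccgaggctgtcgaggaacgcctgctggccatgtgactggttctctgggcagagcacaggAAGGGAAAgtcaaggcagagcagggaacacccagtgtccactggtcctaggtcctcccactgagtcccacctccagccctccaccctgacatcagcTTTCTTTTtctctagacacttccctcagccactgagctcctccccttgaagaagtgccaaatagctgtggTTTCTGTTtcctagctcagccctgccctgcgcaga
Cd80: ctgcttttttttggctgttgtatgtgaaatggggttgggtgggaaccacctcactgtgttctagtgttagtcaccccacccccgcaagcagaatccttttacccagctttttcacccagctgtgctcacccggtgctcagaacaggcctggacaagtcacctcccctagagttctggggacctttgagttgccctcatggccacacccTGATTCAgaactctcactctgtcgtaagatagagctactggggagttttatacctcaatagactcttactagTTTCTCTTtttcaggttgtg
Cd274: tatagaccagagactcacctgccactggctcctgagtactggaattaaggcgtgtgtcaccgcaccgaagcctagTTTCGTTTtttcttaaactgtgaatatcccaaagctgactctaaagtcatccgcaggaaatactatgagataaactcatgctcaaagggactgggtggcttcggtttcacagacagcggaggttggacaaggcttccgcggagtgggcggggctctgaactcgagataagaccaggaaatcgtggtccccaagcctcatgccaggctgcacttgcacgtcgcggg

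The Lgals9 window held 3 matches to the interferon regulatory factor core, beginning 151 and 55 bases before the start site and 16 bases after it as RefSeq places it. The Cd80 window held 1 such match downstream of the start site and 1 AP-1 match, which reads on both strands, and the Cd274 window held 1 core match. At least 1 core match occurs in 23.9% of the 32851 windows of the RefSeq table, and at least 1 AP-1 match in 7.81%. A window with the core is thus common, but these shares give no background for 3 matches in 1 window. The gamma activated site TTCNNNGAA (8.3% of windows) and the p53 half-site (8.36%) had no match in the window of any of the 7 listed members that had one. The windows of Ulbp1, Cd276, Nectin2 and Cd47 had no match to any of the 4 motifs. No listed match overlapped one of another motif. The sequences are those of the C57BL/6 reference strain, and a match is a description of letters, not of binding.

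Cd80 encodes a B7 protein that binds CD28 and CTLA-4 on T cells and can bind PD-L1 on the same membrane. Cd80 (ENSMUSG00000075122, chromosome 16, 38275923 to 38316697, plus strand, GRCm39) had 53.04, 70.0 and 70.2 CPM in irinotecan replicates 1 to 3, against 34.0, 36.1 and 42.0 CPM in DMSO replicates 1 to 3. The groups did not overlap, and irinotecan replicate 1 stood below the other irinotecan libraries while remaining 11.03 CPM above the highest DMSO library. Its log2 fold change was 0.78 ± 0.11 (SE), a 1.72-fold rise with a 95% interval of 1.46 to 2.03 (edgeR, adjusted p = 3.0e-04). Of all genes tested, 2.5% had a larger absolute change. Of 9 markers of dendritic cells and macrophages, from which Cd80 is best known, 2 were listed. Cd68 averaged 4.01 ± 0.265 CPM with irinotecan and 2.36 ± 0.612 CPM with DMSO (SD, n = 3 each). Cd14 averaged 28.9 ± 1.34 CPM with irinotecan and 24.5 ± 1.81 CPM with DMSO. Both were called (edgeR, adjusted p = 0.018 and 0.047), where 22.1% of all genes were. Their part in the change of Cd80 was not tested. Of 15 alternatives, the Cd68 call was lost under 4, each leaving out a library (adjusted p up to 0.07), and the Cd14 call under 7, including RLE normalization and DESeq2 with all 6 libraries (up to 0.15).

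Cd276 encodes B7-H3, a member of the same family that is widely expressed on tumors and mostly described as inhibitory to T cells. Cd276 (ENSMUSG00000035914, chromosome 9, 58431581 to 58462720, minus strand) had 30.4, 25.3 and 25.3 CPM with irinotecan and 19.6, 23.5 and 22.3 CPM with DMSO. The highest irinotecan value and the lowest DMSO value were both in replicate 1, and the groups came within 1.82 CPM of each other. The log2 fold change was 0.31 ± 0.095 (SE; edgeR, adjusted p = 0.024). It no longer passed without DMSO replicate 1 (0.24, adjusted p = 0.11) or irinotecan replicate 1 (0.22, adjusted p = 0.17), which is the highest p of its 15 alternatives; the lowest was 0.0067.

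Cd274, which encodes PD-L1, the ligand of PD-1, was the least abundant member. Cd274 (ENSMUSG00000016496, chromosome 19, 29344855 to 29365495, plus strand) had 73, 134 and 98 counts with irinotecan and 58, 62 and 90 counts with DMSO. In CPM these were 4.2, 7.78 and 5.6 with irinotecan against 3.64, 3.8 and 5.47 with DMSO, so that irinotecan replicate 1 lay below DMSO replicate 3 and the groups overlapped. Its log2 fold change of 0.44 ± 0.21 (SE) missed the threshold (edgeR, adjusted p = 0.15), and its 95% interval ran from 0.997-fold to 1.85-fold. A change as large as that of Cd80 is inside this interval, so the depth and spread did not settle whether Cd274 moved. Without DMSO replicate 3 it passed (log2 fold change 0.65, adjusted p = 0.047), and without irinotecan replicate 2 its log2 fold change was 0.18 (adjusted p = 0.63); these are the lowest and highest p of its 15 alternatives.

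Of the rest of the B7 and butyrophilin family, 1 of 12 genes was listed. Vtcn1, which encodes B7-H4, averaged 2.71 ± 0.123 CPM with irinotecan and 1.99 ± 0.512 CPM with DMSO (SD, n = 3 each; edgeR, adjusted p = 0.23). With edgeR, DESeq2 and limma-voom, 0 of 1 passed, and 0 of 1 had an unadjusted p under 0.05. Pdcd1lg2, Cd86 and Icosl had no row.

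**Figure D2:**
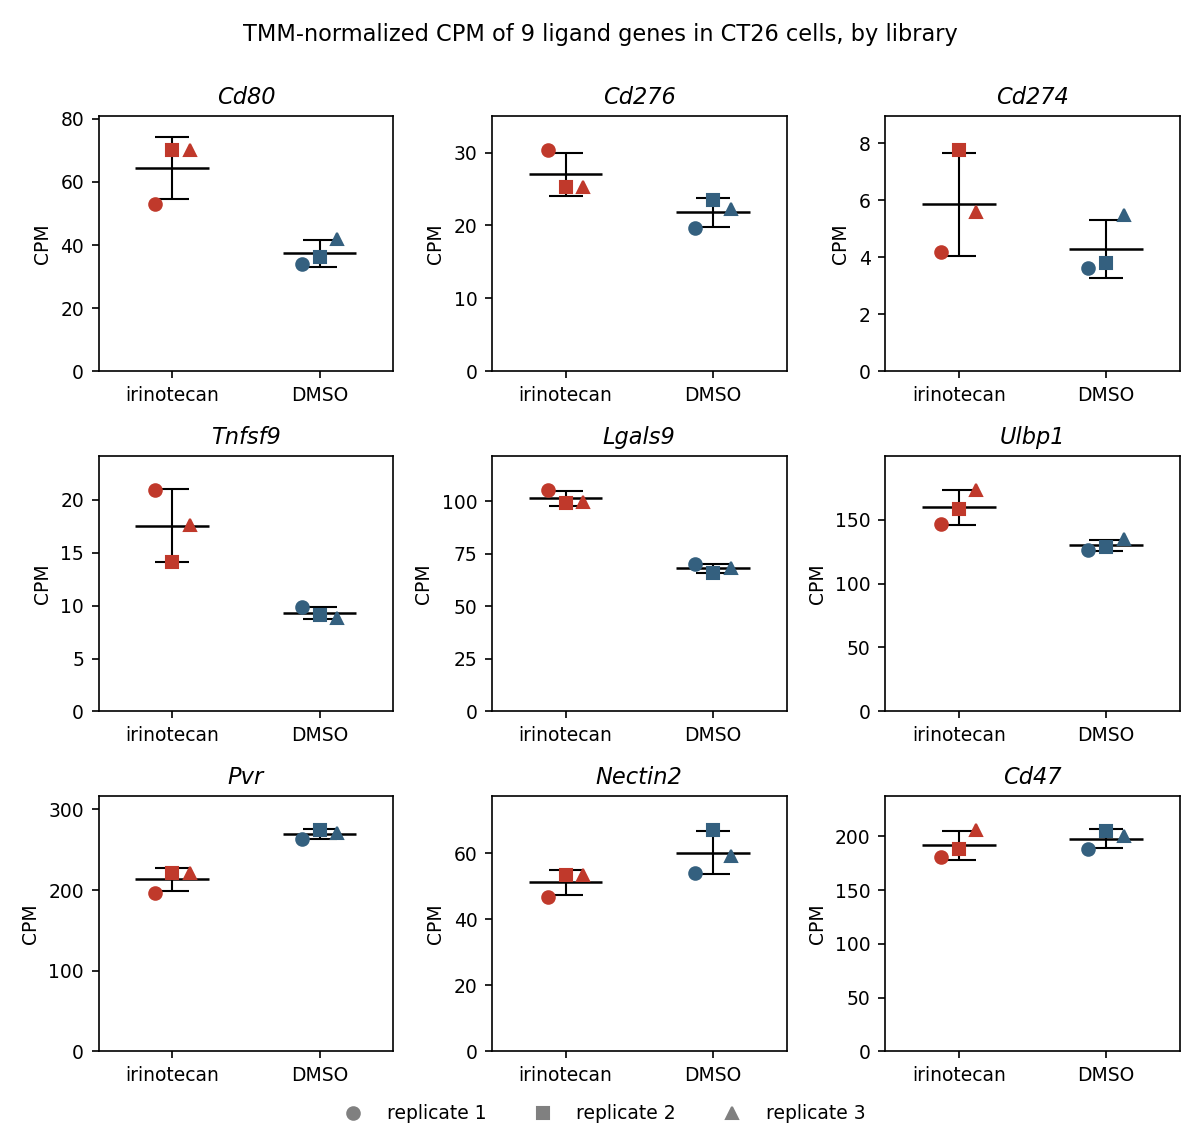
TMM-normalized CPM of each ligand gene in the 3 irinotecan and 3 DMSO libraries, with the group mean and SD; symbols give the replicate number and each panel starts at 0 with its own scale. The groups are separate for every gene except Cd274 and Cd47, and come within 0.706 CPM of each other for Nectin2.

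Tnfsf9, the ligand of the T-cell costimulatory receptor 4-1BB, had the highest fold change of the 9 with all libraries in the fit, although its interval overlapped that of Cd80. Without irinotecan replicate 1 the log2 fold change was 0.77 for Tnfsf9 and 0.91 for Cd80. Tnfsf9 (ENSMUSG00000035678, chromosome 17, 57412325 to 57414757, plus strand) had 21.0, 14.1 and 17.6 CPM with irinotecan, against 9.92, 9.08 and 8.82 CPM with DMSO. The irinotecan libraries were spread over a wider range, with replicate 1 highest and replicate 2 lowest, at a coefficient of variation of 19.5% against 6.22% in DMSO. Its fold change on the log2 scale was 0.92 ± 0.13 (SE), 1.89-fold with a 95% interval of 1.57 to 2.29 (edgeR, adjusted p = 3.1e-05), and 1.59% of genes changed more in absolute terms. Of 17 other TNF ligand superfamily genes, Tnfsf12 (TWEAK) was listed, at 7.47 ± 0.773 CPM with irinotecan and 5.69 ± 0.642 CPM with DMSO (SD, n = 3 each; edgeR, adjusted p = 0.071). Its unadjusted p was under 0.05, but 0 of 1 passed after adjustment with edgeR, with DESeq2 or with limma-voom. It passed under 3 of 15 alternatives, both FPKM scales among them, with adjusted p down to 0.025.

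The receptor of this ligand also had a row. Of 13 receptors that lymphocytes or macrophages use to read the ligands, Tnfrsf9 and Tigit were listed and 11 were not, Pdcd1, Ctla4, Cd28, Cd226, Klrk1 and Sirpa among them. Tnfrsf9, which encodes 4-1BB, had 11.4, 9.99 and 10.5 CPM with irinotecan and 7.72, 5.03 and 6.99 CPM with DMSO, a log2 fold change of 0.69 ± 0.15 (SE; edgeR, adjusted p = 0.0020). Tigit, the inhibitory receptor of PVR and named here after its values were seen, had 25.8, 30.3 and 29.7 CPM with irinotecan and 26.3, 25.2 and 22.3 CPM with DMSO (edgeR, adjusted p = 0.089). The Tigit groups overlapped, and it passed under the same 3 of 15 alternatives as Tnfsf12, with adjusted p down to 0.042. Of 11 T and natural killer cell markers 0 were listed, in a table from which genes of few counts are absent. Which cells carried the Tnfrsf9 and Tigit transcripts was not tested.

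Lgals9 encodes galectin-9, a sugar-binding protein that is a ligand of the T-cell receptor TIM-3 among others. Lgals9 (ENSMUSG00000001123, chromosome 11, 78853800 to 78875772, minus strand) had 106, 98.9 and 99.6 CPM with irinotecan and 69.9, 65.8 and 68.4 CPM with DMSO. The libraries of a group lay close together, with coefficients of variation of 3.58% with irinotecan and 3.01% with DMSO, and a gap of 29.1 CPM parted the groups. The log2 fold change was 0.57 ± 0.057 (SE), 1.49-fold with an interval of 1.37 to 1.62 (edgeR, adjusted p = 2.4e-07), the smallest p of the 9. Among the fibroblast markers, Col1a1, a collagen, averaged 232 ± 2.11 CPM with irinotecan and 168 ± 3.91 CPM with DMSO (SD, n = 3 each), a log2 fold change of 0.47 (edgeR, adjusted p = 2.3e-07). Of the 5 listed fibroblast markers Col1a1 and Col3a1 rose, and Col1a2, Pdgfra and Pdgfrb did not pass (edgeR, adjusted p = 0.071, 0.15 and 0.89). That is 40% past the threshold, beside 22.1% of all genes called and 11.8% called higher. The part of these markers in the change of Lgals9 was not tested.

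Of 10 genes fixed as the galectin family and a galectin-binding protein, 6 were listed and 1 rose, a share of 16.7% past the threshold beside 22.1% of all genes. That was Lgals3bp, which encodes the galectin-3 binding protein and is no galectin, at 216 ± 15.5 CPM with irinotecan and 139 ± 2.29 CPM with DMSO (SD, n = 3 each), a log2 fold change of 0.63 ± 0.053 (SE; edgeR, adjusted p = 2.3e-08). The other 5, Lgals1, Lgals3, Lgals7, Lgals8 and Lgalsl, had log2 fold changes of -0.08 to 0.18 and did not pass. Lgals1, at 2819 CPM with irinotecan and 2980 CPM with DMSO, was chosen for mention after its values were seen. Lgals1, Lgals8 and Lgals3bp passed without DMSO replicate 3.

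Ulbp1 encodes MULT1 in the mouse, a ligand of NKG2D. Ulbp1 (ENSMUSG00000079685, chromosome 10, 7390362 to 7423638, minus strand) had 146, 159 and 173 CPM with irinotecan, against 126, 128 and 135 CPM with DMSO. Every irinotecan library was higher than every DMSO library, by at least 11.8 CPM. It rose by 0.30 ± 0.058 on the log2 scale (SE), 1.23-fold with an interval of 1.13 to 1.34 (edgeR, adjusted p = 8.9e-04). Another NKG2D ligand, H60b, averaged 2.38 CPM with irinotecan and 2.63 CPM with DMSO (log2 fold change -0.14 ± 0.24, SE; edgeR, adjusted p = 0.72) and is named after its values were seen. Genes of the Raet1 and H60 families are close copies that differ between mouse strains, so reads of BALB/c cells counted on a C57BL/6 reference are uncertain for them.

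Genes that regulate or shed NKG2D ligands did not pass the edgeR test with all libraries, and some passed under other processing. Of 15 fixed, 13 were listed and edgeR called 0, where 22.1% of all genes were called. Of these 13, 4 had an unadjusted p under 0.05, and DESeq2 and limma-voom each called 1. Both called Atm, named here after its values were seen, with a log2 fold change of 0.28 ± 0.11 (SE, edgeR, adjusted p = 0.096). Atm passed under 5 of 15 alternatives, with adjusted p down to 0.0025. With limma on either FPKM scale and with a replicate term 3 genes rose, and with total counts alone 2 rose. Adam10, a protease that sheds ligands from the membrane, averaged 90.05 ± 2.43 CPM with irinotecan and 81.1 ± 0.754 CPM with DMSO (SD, n = 3 each; edgeR, adjusted p = 0.054). Hdac1, a histone deacetylase, averaged 95.3 ± 1.82 CPM with irinotecan and 86.1 ± 3.13 CPM with DMSO (edgeR, adjusted p = 0.061). The groups were separate for Adam10 and Hdac1, as they were for 4 of the 13 listed genes and for 37.1% of all genes. Both passed when scaled by total counts alone and on the FPKM scale. Trp53 averaged 226 ± 1.82 CPM with irinotecan and 238 ± 5.97 CPM with DMSO (edgeR, adjusted p = 0.28), while Cdkn1a, its target and a marker of the damage response, averaged 497 ± 27.4 CPM with irinotecan and 314 ± 32.6 CPM with DMSO (edgeR, adjusted p = 5.2e-07).

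Pvr and Nectin2, both on chromosome 7, encode ligands of DNAM-1 and TIGIT-family receptors and were the members that fell. Pvr (ENSMUSG00000040511, chromosome 7, 19637503 to 19655085, minus strand) had 196, 222 and 222 CPM with irinotecan and 263, 275 and 271 CPM with DMSO. The groups were 41.5 CPM apart, with irinotecan replicate 1 lowest. The log2 fold change was -0.34 ± 0.052 (SE), to 0.79 of the DMSO level with an interval of 0.734 to 0.851 (edgeR, adjusted p = 6.9e-05).

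Nectin2 (ENSMUSG00000062300, chromosome 7, 19450569 to 19484408, minus strand) had 46.7, 53.4 and 53.4 CPM with irinotecan and 54.1, 67.1 and 59.3 CPM with DMSO. The groups did not overlap, but they were parted by 0.706 CPM. The log2 fold change of -0.23 ± 0.077 (SE; edgeR, adjusted p = 0.033) was lost under 6 of 15 alternatives. It was -0.15 without DMSO replicate 2 (adjusted p = 0.21, the highest of the 15, the lowest being 0.0017), -0.17 without irinotecan replicate 1 (0.19) and -0.27 without irinotecan replicate 2 (0.0502). With total counts as the only scaling it was -0.20 (0.0602).

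Of 17 further genes of nectin, cadherin and afadin adhesion, 10 were listed, 2 fell, 0 rose and 8 missed the threshold, a share of 20% past it beside 22.1% of all genes. Their median change was 0.06 on the log2 scale. With total counts alone 2 rose and 2 fell, and on either FPKM scale 1 rose and 2 fell. Cadm1, a nectin-like adhesion protein that binds the lymphocyte receptor CRTAM, had 175, 182 and 199 CPM with irinotecan and 212, 234 and 245 CPM with DMSO (log2 fold change -0.31 ± 0.058, SE; edgeR, adjusted p = 5.3e-04). Pard3, a polarity protein recruited to nectin junctions, averaged 92.4 ± 3.98 CPM with irinotecan and 112 ± 5.64 CPM with DMSO (SD, n = 3 each). Nectin1, named after its values were seen, had a log2 fold change of 0.27 ± 0.13 (SE; edgeR, adjusted p = 0.16), opposite in sign to those of Pvr and Nectin2. Afdn, the afadin gene that anchors nectins to actin, stood at 232 CPM with irinotecan and 219 CPM with DMSO (edgeR, adjusted p = 0.32).

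Cd47, which encodes the protein that binds SIRP-alpha on macrophages and restrains phagocytosis, stood at like levels in both groups. Cd47 (ENSMUSG00000055447, chromosome 16, 49620896 to 49735373, plus strand) had 180, 188 and 206 CPM with irinotecan and 188, 205 and 201 CPM with DMSO. The groups overlapped across most of their range. The log2 fold change was -0.05 ± 0.054 (SE; edgeR, adjusted p = 0.60), and its 95% interval ran from 0.897-fold to 1.05-fold. The lower bound lies above the interval of Pvr, which ends at 0.851.

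Around Cd47, 8 of 12 genes were listed, of which 2 rose and 1 fell, or 37.5% past the threshold beside 22.1% of all genes. Without DMSO replicate 2, 1 rose and 0 fell. Thbs1, a secreted ligand of CD47, had 46.1, 36.9 and 34.3 CPM with irinotecan and 24.9, 18.5 and 20.4 CPM with DMSO, a log2 fold change of 0.88 ± 0.12 (SE; edgeR, adjusted p = 7.6e-05). Bnip3, a mitochondrial protein of cell death reported downstream of CD47, averaged 47.2 ± 9.3 CPM with irinotecan and 29.8 ± 5.37 CPM with DMSO (SD, n = 3 each), and Ubqln1, a ubiquilin, averaged 297 ± 1.74 CPM with irinotecan and 333 ± 10.0 CPM with DMSO. The calls of Bnip3 (edgeR, adjusted p = 0.047) and Ubqln1 (0.014) were lost without some single libraries, reaching 0.19 and 0.058. Qpctl, the enzyme that modifies the SIRP-alpha binding site of CD47, stood at 14.4 CPM with irinotecan and 13.5 CPM with DMSO (edgeR, adjusted p = 0.61). Calr, calreticulin, the phagocytic signal that CD47 counters, stood at 568 CPM with irinotecan and 578 CPM with DMSO (edgeR, adjusted p = 0.76).

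**Figure D3:**
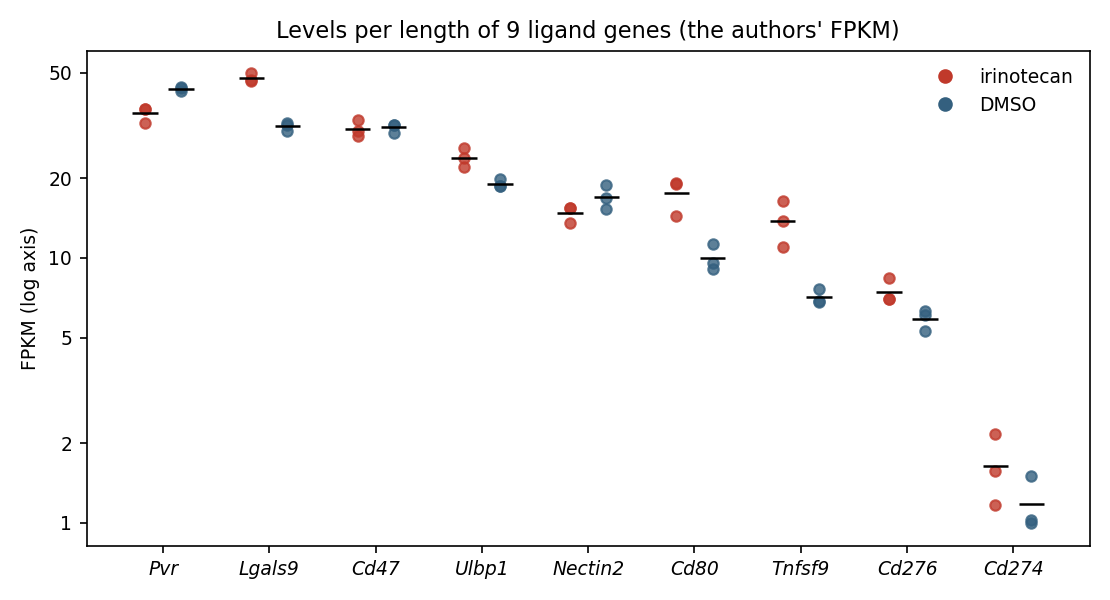
Levels per gene length of the 9 ligand genes, as the authors' FPKM on a log axis, ordered by the DMSO mean; points are libraries and lines are group means. Lgals9 lies above Pvr in the 3 irinotecan libraries and below it in the 3 DMSO libraries, and Cd274 is lowest in both groups.

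The order of levels, per gene length on the scale of the authors' FPKM, changed at the top. With irinotecan the means fell in the order Lgals9, Pvr, Cd47, Ulbp1, Cd80, Nectin2, Tnfsf9, Cd276 and Cd274. With DMSO the order was Pvr, Lgals9, Cd47, Ulbp1, Nectin2, Cd80, Tnfsf9, Cd276 and Cd274. With irinotecan the libraries of Pvr and Cd47, of Cd80 and Nectin2, and of Nectin2 and Tnfsf9 overlapped, and with DMSO those of Lgals9 and Cd47 and of Ulbp1 and Nectin2 did. All other neighbours were separate.

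Lgals9 stood at 47.9 ± 1.71 FPKM with irinotecan and 31.5 ± 1.2 FPKM with DMSO, and Pvr at 35.1 ± 2.41 FPKM with irinotecan and 43.5 ± 0.837 FPKM with DMSO (SD, n = 3 each). The ratio of Lgals9 to Pvr within a library, which no scaling between libraries touches, was 1.54, 1.28 and 1.29 in irinotecan replicates 1 to 3 and 0.761, 0.686 and 0.722 in DMSO replicates 1 to 3. This ratio was singled out after the values were seen and was not tested. Pvr made up 17.3% to 19.0% of the summed FPKM of the 9 genes with irinotecan and 25.9% to 26.3% with DMSO. At the lower end Cd274 stood at 1.63 ± 0.503 FPKM with irinotecan and 1.18 ± 0.286 FPKM with DMSO, and 15.6% of listed genes had a lower mean FPKM.

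All 16 genes fixed for the signalling path that leads from interferon receptors to Cd274 were listed, of which 6 rose, 0 fell and 10 missed the threshold. The share past it was 37.5%, beside 22.1% of all genes called and 11.8% called higher. Their median change was 0.16 on the log2 scale. With DESeq2 and with limma on either FPKM scale 5 rose and 0 fell, as without DMSO replicate 1 or irinotecan replicate 1 or 2. With total counts alone 7 rose and 0 fell, and with a replicate term 7 rose and 1 fell. The call of Irf2, named after its values were seen (edgeR, adjusted p = 0.036), was lost under 6 of 15 alternatives, reaching 0.16. Stat2, a transducer of type I interferon signals, averaged 81.5 ± 14.3 CPM with irinotecan and 39.1 ± 1.65 CPM with DMSO (SD, n = 3 each; edgeR, adjusted p = 4.2e-05). Irf1, the factor through which interferon gamma acts on the Cd274 promoter, had 24.1, 22.7 and 20.01 CPM with irinotecan and 16.95, 15.95 and 15.6 CPM with DMSO, a log2 fold change of 0.46 ± 0.096 (SE; edgeR, adjusted p = 0.0015). The receptor genes Ifngr1, Ifngr2, Ifnar1 and Ifnar2 and the kinase genes Jak1, Jak2 and Tyk2 had log2 fold changes of -0.14 to 0.17 and did not pass. They are named after their values were seen.

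Among 24 genes that modify, traffic or degrade PD-L1 or regulate Cd274, all listed, 3 rose and 7 fell, so that 41.7% were past the threshold, beside 22.1% of all genes (11.8% higher, 10.3% lower). The surplus of falls depended on the scaling: 3 rose and 3 fell with total counts alone, and 3 rose and 2 fell with limma on either FPKM scale. Myc, a transcription factor reported to act on Cd274 and Cd47, had 186, 174 and 191 CPM with irinotecan and 259, 273 and 248 CPM with DMSO, a log2 fold change of -0.50 ± 0.051 (SE; edgeR, adjusted p = 3.5e-07). Cul3, a cullin scaffold of the ubiquitin ligase that acts on PD-L1, averaged 163 ± 6.18 CPM with irinotecan and 193 ± 3.94 CPM with DMSO (SD, n = 3 each), and Cop1, another ubiquitin ligase, averaged 55.8 ± 5.54 CPM with irinotecan and 68.1 ± 4.01 CPM with DMSO. The call of Cop1 (edgeR, adjusted p = 0.0062) was lost without irinotecan replicate 1 and on the FPKM scale, reaching 0.091. B3gnt3, a glycosyltransferase reported to modify PD-L1, averaged 114 ± 6.64 CPM with irinotecan and 88.0 ± 3.4 CPM with DMSO (edgeR, adjusted p = 8.6e-05).

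Zdhhc9, a palmitoyltransferase, and Cdk5, a kinase, rose by smaller amounts, with log2 fold changes of 0.23 ± 0.071 and 0.25 ± 0.083 (SE; edgeR, adjusted p = 0.025 and 0.035). The call of Zdhhc9 was lost under 2 of 15 alternatives, with adjusted p up to 0.13, and that of Cdk5 under 5, DESeq2 among them, with adjusted p up to 0.16. The number past the threshold was 4 without irinotecan replicate 1 and 5 without DMSO replicate 2, against 10 of 24 with all libraries. Cmtm6, which protects PD-L1 from lysosomal breakdown, stood at 34.6 CPM with irinotecan and 34.9 CPM with DMSO (edgeR, adjusted p = 0.94).

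A wider list of 46 other checkpoint, costimulatory and lymphocyte ligands had 12 genes in the table, of which 1 rose, 1 fell and 10 did not pass. H2-T23, which encodes the heavy chain of Qa-1, a ligand of the receptor pair CD94 and NKG2A, had 9.88, 5.98 and 6.86 CPM with irinotecan and 4.02, 3.44 and 3.53 CPM with DMSO. Its log2 fold change was 1.05 ± 0.19 (SE; edgeR, adjusted p = 4.9e-04). Genes of the MHC are highly polymorphic between strains and share sequence with each other, so its counts are uncertain. The gene that fell was Cadm1. The share past the threshold was 16.7%, beside 22.1% of all genes, and the median log2 fold change was 0.07.

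**Figure D4:**
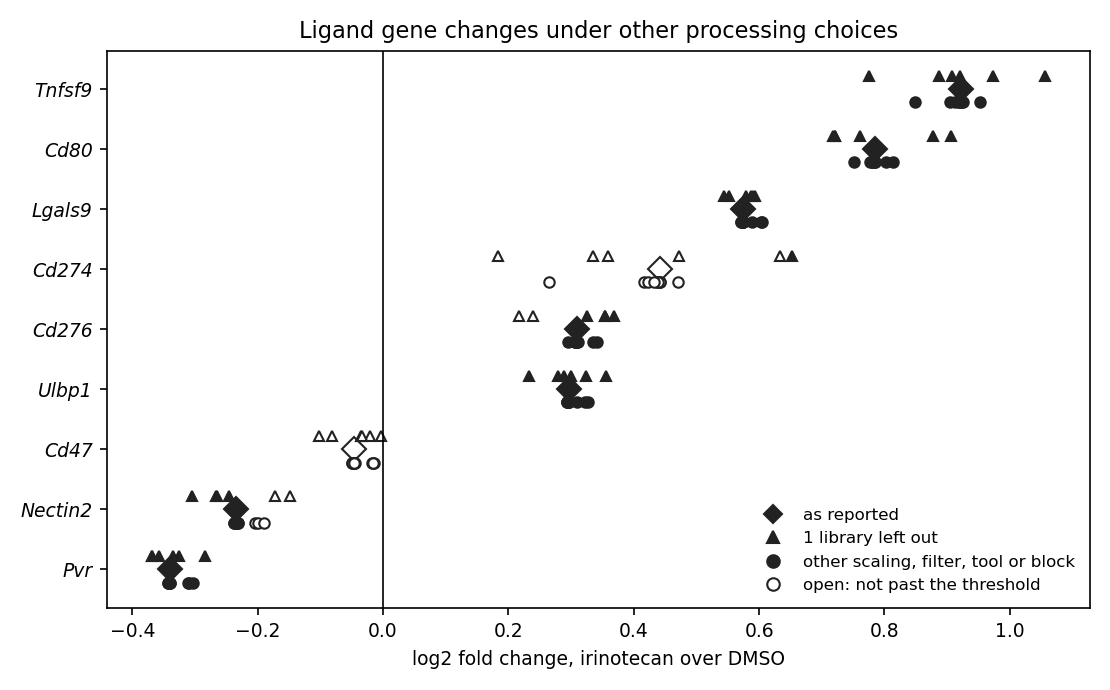
Log2 fold change of each ligand gene, irinotecan over DMSO, as reported (diamonds), with 1 library left out (triangles) and under other scalings, filters, tools or with the replicate number as a term (circles); open symbols did not pass an adjusted p of 0.05. Tnfsf9, Cd80, Lgals9, Ulbp1 and Pvr are filled throughout, whereas Cd276 and Nectin2 have open symbols and Cd274 has 1 filled one.

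The libraries differed in which ligands stood highest. Within the irinotecan group Tnfsf9, Cd276, H2-T23 and Lgals9 were highest in replicate 1, where Cd80, Ulbp1, Cd274, Cd47, Pvr and Nectin2 were lowest. In the authors' deposited table, whose log2 fold changes run DMSO over irinotecan, the same 7 members had an adjusted p under 0.05, Lgals9 with the smallest (-0.57, 4.9e-16) and Nectin2 with the largest among them (0.24, 0.040).

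For each member the 3 genes with the most similar profile were found by the root mean square distance between log2 CPM values centred on their mean, over the 6 libraries. A small distance reflects the shared group difference and shared libraries, and among so many genes some will lie close. Nearest to Lgals9 were Nxpe3, Samhd1 and Col3a1, at 0.030 to 0.033. Nearest to Tnfsf9 were Mettl27, Parp9 and Dtx3l, at 0.076 to 0.095. Nearest to Cd80 were Slc25a42, Psrc1 and Mdm2, at 0.054 to 0.12. The log2 fold changes of these 9 genes ran from 0.51 to 1.06.

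Nearest to Pvr were Dis3l2, Prpf3 and Nop58, at 0.014 to 0.023, and nearest to Nectin2 were Mmp11, Them4 and Gch1, at 0.029 to 0.038. Nearest to Ulbp1 were Gfod2, Nrg1 and Hbb-bh1, at 0.035 to 0.043, and nearest to Cd276 were C1ra, Natd1 and Hps1, at 0.027 to 0.046. Nearest to Cd47 were Tyms, Pcca and Micall1, at 0.018 to 0.021. Cd274 had no such close neighbour among the genes compared, with Mir22hg at 0.13, Napsa at 0.20 and Hmgn2 at 0.20. Those compared had a mean of at least 5 CPM, and Cd274 itself averaged 5.86 CPM with irinotecan and 4.31 CPM with DMSO. The part of its low level in these distances was not tested.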

How the data were processed

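Per the file headers, the table the authors deposited gives, for each gene, raw counts and FPKM in every library, then its own log2 fold change with p-value and adjusted p-value. The lowest total of a gene was 58 counts over 6 libraries, so genes of few counts are absent. The submitters' processing notes name GRCm39, edgeR 3.24.3, DESeq2 1.22.1, StringTie 1.3.4d, HISAT2 2.1.0, featureCounts 1.6.2 and fastp 0.19.3, with no role given. Strandedness is not given in the sources used here. The deposited log2 fold changes run DMSO over irinotecan (correlation across genes with irinotecan over DMSO counts -0.9996).

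Counts were tested across all genes in R 4.3.3 with edgeR 4.0.16: filterByExpr (11599 genes kept, 5 left out), TMM, robust quasi-likelihood test, Benjamini-Hochberg adjustment, threshold 0.05. The code was checked on counts simulated with a single spread shared by all genes. That check cannot tell how the test handles the spread of these data. The SE is the absolute log2 fold change over the root of F, and log2 CPM has a prior count of 2. Members, lists and named genes were chosen with earlier results of these data known. Named genes were every member, up to 3 higher and 3 lower genes past the threshold per list by p (otherwise the 2 of smallest p), Trp53, Cdkn1a, and each member's 3 nearest profiles at a mean of at least 5 CPM; a gene that the rule also names is not reported here. Replicates were not duplicates of one library (chi-square of counts over its degrees of freedom 4.24 to 6.45). Alternatives were DESeq2 1.42.0, limma 3.58.1 on counts (voom), log2(FPKM + 0.1) and log2(FPKM + 1), other scalings and filters, a replicate term, and leaving out each library. RefSeq promoter windows matched 7 of the 9 listed members.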

Additional observations from a re-analysis of the deposited data

How the results depend on the processing

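Tnfsf9, Cd80, Lgals9, Ulbp1 and Pvr kept their direction and passed the threshold under all 15 alternatives, and 0 of the 9 members changed direction under any of them. The number of members past the threshold was 7, and 5 to 8 with 1 library left out (4 to 6 higher, 1 to 2 lower). The lower count was 1 when DMSO replicate 2 was left out, and likewise for irinotecan replicates 1 and 2. Scaled by total counts alone, and with limma on log2(FPKM + 0.1) or log2(FPKM + 1), 1 member was lower, since Nectin2 no longer passed; the cause was not tested. Over all genes the count was 2559, 1393 to 2362 with 1 library left out (804 to 1211 higher, 589 to 1151 lower; 1393 without irinotecan replicate 1, and 726 lower without DMSO replicate 2), where fewer libraries enter the fit. With limma on either FPKM scale 642 genes were lower, and 66.1% of the calls were higher with total counts alone, against 53.5% with TMM.

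With the replicate block 1820 genes were lower and 3628 changed in all, and the members gave 7 calls. Adam10, Hdac1, Atm, Tnfsf12 and Tigit also passed with the block, and 2 of the nectin, cadherin and afadin genes rose. Same-numbered libraries deviated together with correlations of 0.040 to 0.12, against -0.13 to 0.035 for libraries of different numbers. All 6 correlated best with their own number. Deviations from a group mean depend on each other, so these are not 6 separate agreements. This is a hint from the data and not the design, so the numbers were not taken as pairs. Cd274, at 58 to 134 counts per library, had the fewest counts of the members and the largest SE, 0.21. Its coefficients of variation were 30.8% with irinotecan and 23.5% with DMSO. The parts of depth and of spread among libraries in this SE were not tested.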
